A study of Rattus norvegicus with 12 samples.

Results

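The microglia genes are 10 genes that are used to recognise microglia, the resident macrophages of the brain: Aif1, Itgam, Cd68, Cx3cr1, Csf1r, P2ry12, Trem2, Tyrobp, C1qa and C1qb. They were taken by symbol, not by their values, from the 15154 named genes on the array, and each was found. Together they have 12 probes, since Aif1 and Csf1r have 2 each, and a gene is described by the probe with the highest mean signal over all arrays. The study measured gene expression in primary cultures of hippocampal neurons from Wistar rat embryos (stage E18 at the earliest). It calls these cultured neurons mature. They were measured after a period without oxygen and glucose (OGD), which stands in for global ischemia in a dish. Cultures were deprived for 2 h in a buffer without glucose in an anaerobic chamber, and Ctrl cultures stayed as long in a buffer with glucose in an ordinary incubator. Both then recovered in their conditioned medium for 7 h or 24 h, and total RNA of 3 cultures was hybridized for each of the 4 groups, 1 culture to each of 12 Agilent arrays with 1 color. The arrays lie on 6 slides, and each slide carries a Ctrl and an OGD array of the same recovery time and replicate number. These are neuronal cultures in which the study's methods count glial cells as a minority, so the microglia genes are measured in RNA that comes largely from other cells.

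Microglia arise from yolk sac progenitors under the transcription factors Spi1 (PU.1), Irf8 and Runx1, and live on signals through the receptor Csf1r. They survey neurons through Cx3cr1, the receptor of the neuronal chemokine fractalkine, and through the nucleotide receptor P2ry12. They take up debris through the Trem2 and Tyrobp complex and through complement, which C1q starts. In the ischemic brain they are known to gather around dying neurons and to change from a surveying to a phagocytic state.

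In the cultures, 7 of the 10 microglia genes were well above background on all 12 arrays, in the sense of the scanner software's test of a spot against its local background, as were 71.9% of all named genes. C1qa was well above background on 11 arrays, P2ry12 on 10 and Itgam on 3. Other genes of this lineage gave a mixed picture. Tmem119 and Laptm5 were well above background on 12 arrays each, but Ptprc, the leukocyte marker CD45, P2ry13, Siglec5 and Clec7a were so on 0 arrays. Itgam and Ptprc, which define cells of this lineage, were thus at or near background on most or all arrays. All levels below are log2 intensities minus the median of their array, so that 0 is the middle probe of an array, and levels of different genes are not compared, because probes differ in how they bind.

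The rule of the study's methods, an unadjusted p under 0.05 with a fold of at least 2, is here named a call. At 7 h Cx3cr1 was called and was higher after OGD, 1 gene of 10. Over all 30367 probes, 3.74% were called at 7 h, 2.08% as higher. At 24 h limma called 0 of the 10, against 5.67% of all probes, and 1 of the 10, Cd68, passed an unadjusted 0.05 with a fold just below 2, as 13.7% of all probes did at any fold (11.8% at 7 h). The methods' t-test called 1 member at 7 h and 0 at 24 h. After Benjamini-Hochberg adjustment over all probes, limma left 0 probes (0.0%) at either time, with a lowest adjusted p of 0.117 at 7 h and 0.209 at 24 h, and the methods' t-test left 1 probe at 7 h and 0 at 24 h, so each change below is one that the unadjusted rule picks. In bulk RNA, fewer cells of a type and less RNA per cell cannot be told apart.

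The median log2 fold change of the 10 genes was 0.19 at 7 h, beside -0.06 over all probes, and 0.26 at 24 h, beside 0.01. Without Itgam, which was near background, the medians were -0.05 and 0.29. At 7 h 5 genes lay above 0 and 5 below. At 24 h 9 genes lay above 0, and Itgam lay below. With the background corrected by normexp, 9 genes lay above 0 at 7 h with a median of 0.51, beside 0.08 over all probes, and 9 at 24 h with a median of 0.34. Scaling the arrays to the 1 usable spike-in probe moved the median of all probes to -0.83 at 7 h and -1.01 at 24 h and put 8 and 10 of the genes below 0, but it left the genes 0.24 and 0.25 above the median of all probes, as before. The signs below are thus relative to the other probes of the array.

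**Figure D1:**
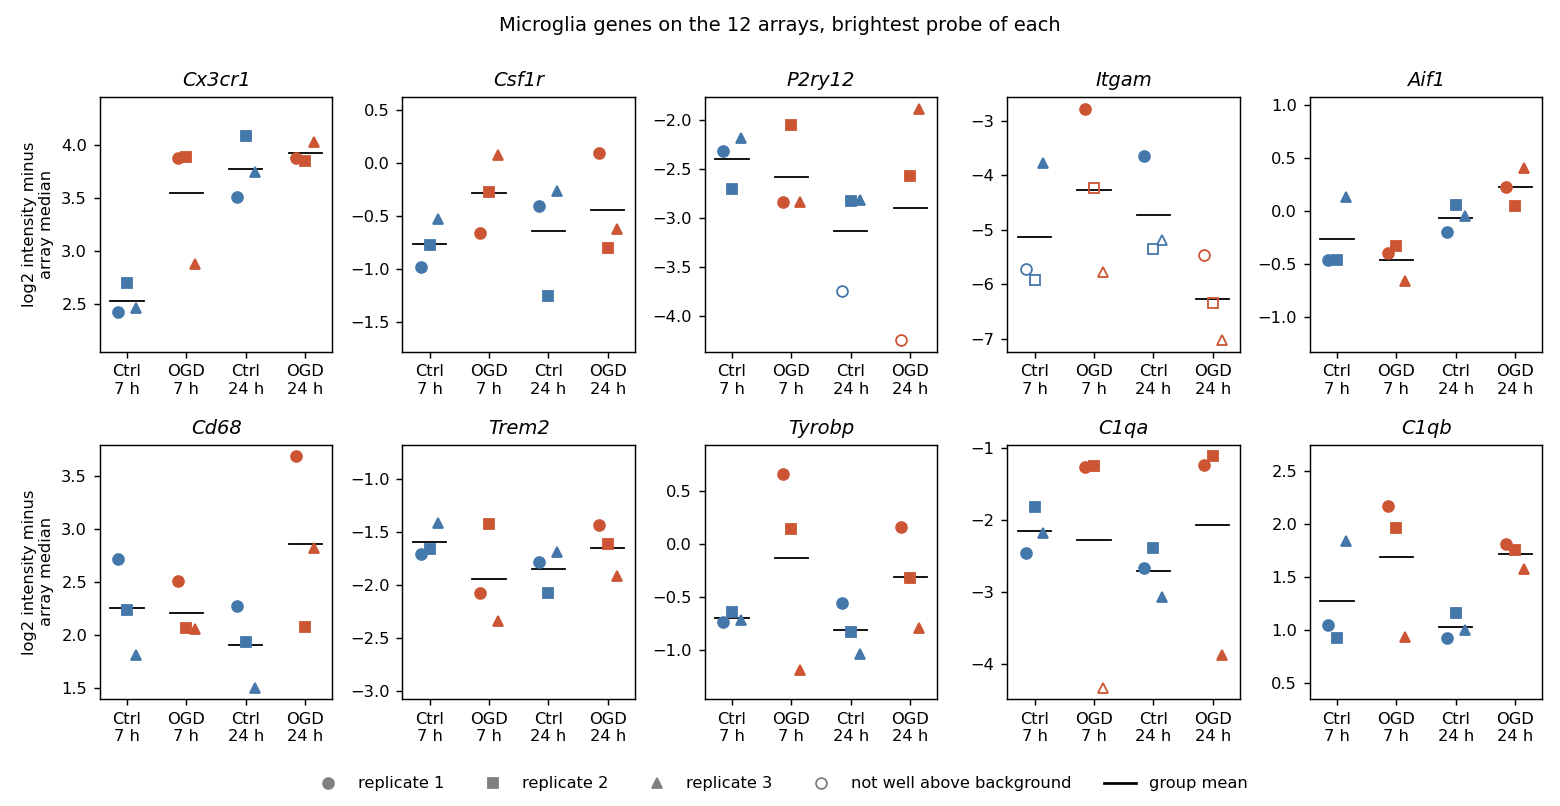
Log2 intensity minus the array median (vertical axes, each panel with its own range) of the 10 microglia genes in the 4 groups, with 1 point for each array, symbols for the replicate numbers, open symbols for arrays not well above background and bars for the group means. The OGD points of Cx3cr1 at 7 h lie above the Ctrl points, and OGD replicate 3 at 7 h is the lowest of its group in 8 of the 10 genes.

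**Figure D2:**
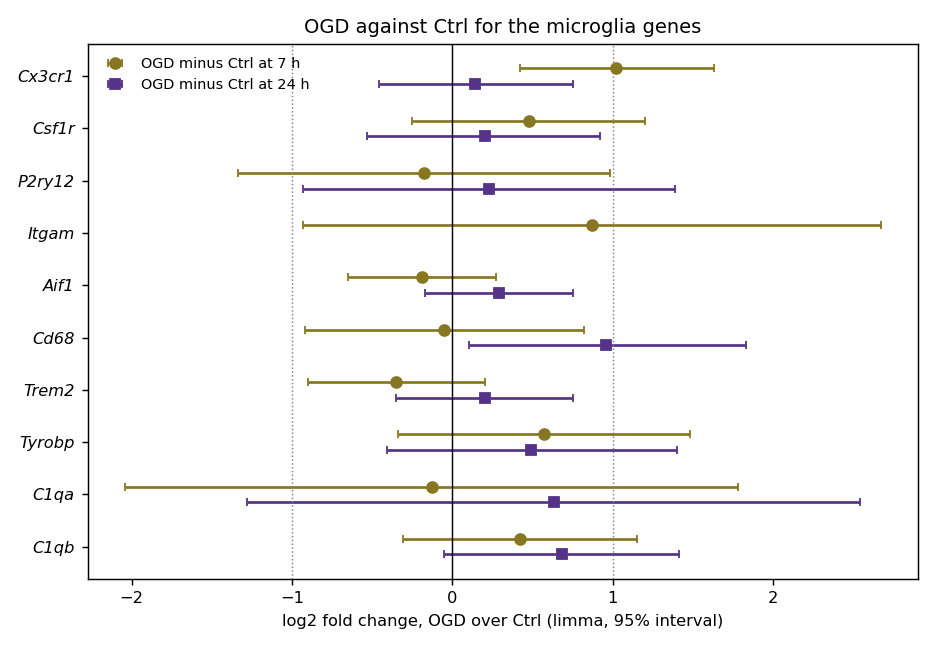
Log2 fold change of OGD over Ctrl (horizontal axis) for the microglia genes at 7 h and 24 h, with the 95% interval of the limma fit and dotted lines at a fold of 2 in either direction. The intervals of Cx3cr1 at 7 h (0.42 to 1.63) and Cd68 at 24 h (0.10 to 1.83) exclude 0, and Itgam at 24 h is not drawn because no OGD array measured it there.

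Cx3cr1, the fractalkine receptor, was the gene that changed at 7 h. On the Ctrl arrays at 7 h it stood at 2.42, 2.70 and 2.46 above the array median, and on the OGD arrays at 3.88, 3.89 and 2.88. Each OGD culture lay above each Ctrl culture, with replicate 3 closest to them. Over all probes, 10.6% had OGD arrays that did not overlap the Ctrl arrays and lay higher. The log2 fold change was 1.02 (SE 0.27, n = 3 arrays a group), a fold of 2.03, with a limma adjusted p of 0.263. Within the 3 slides the differences were 1.46, 1.18 and 0.42. The value passed an unadjusted 0.05 when any single array was left out, but the fold fell below 2 in 4 of those 6 cases of the same time, down to 0.85 without OGD replicate 1 or replicate 2. With the background corrected by normexp Cx3cr1 was higher by 0.53, with spike-in scaling by 0.24, and it was called in neither. The study's own tables list Cx3cr1 among its changed genes on these same arrays, so the choice of this gene is not independent of its change.

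At 24 h the Cx3cr1 levels were 3.51, 4.08 and 3.74 on Ctrl arrays and 3.88, 3.85 and 4.03 on OGD arrays. The groups overlapped, and the log2 fold change was 0.14 with a 95% interval from -0.46 to 0.75. The response at 24 h was smaller than the one at 7 h by a log2 difference of -0.88 (SE 0.39, limma adjusted p = 1.0). That test passed an unadjusted 0.05, as did 3.58% of all probes, and it did so in 7 of 21 alternatives. The order of the group means, 2.53 (SD 0.15) for Ctrl at 7 h, 3.55 (SD 0.58) for OGD at 7 h, 3.78 (SD 0.29) for Ctrl at 24 h and 3.92 (SD 0.10) for OGD at 24 h, shows that Ctrl at 7 h was the group that stood apart, and the other neighbours differ by less than their spread. Ctrl cultures were higher at 24 h than at 7 h by 1.25 (SE 0.27, limma adjusted p = 0.0947). Cx3cr1 was the only microglia gene called between the Ctrl groups, where 4.93% of all probes were called. The Ctrl arrays at 7 h thus enter both of its calls, and the calls are not independent of each other. Its ligand Cx3cl1, or fractalkine, which neurons make, was well above background on all arrays and gave -0.22 (limma adjusted p = 0.844) at 7 h and -0.76 (adjusted p = 0.399) at 24 h. All 3 OGD arrays of Cx3cl1 at 24 h (6.14, 7.68 and 7.72) were below the Ctrl arrays (8.21, 7.85 and 7.78), and without OGD replicate 1 the difference was -0.24.

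The sequence before the start of Cx3cr1 is shown because it was the member with a call. RefSeq on build GRCr8 holds a promoter for 7 of the 10 genes, and those of Aif1, P2ry12 and Tyrobp are not in the table used. The letters GAGGAA, a core that the myeloid factor PU.1 binds, were searched on both strands (TTCCTC on the other) in the 250 bases before each start, and 23.3% of 33469 promoters hold them. Of the 7, Itgam, Cd68, Csf1r, Trem2 and C1qb held them, and Cx3cr1 and C1qa did not. A match or its absence describes these letters in this window. The bases before Cx3cr1 (chr8:128677067-128677316, minus strand, 5′ to 3′, no match and so no capitals) are:
Cx3cr1: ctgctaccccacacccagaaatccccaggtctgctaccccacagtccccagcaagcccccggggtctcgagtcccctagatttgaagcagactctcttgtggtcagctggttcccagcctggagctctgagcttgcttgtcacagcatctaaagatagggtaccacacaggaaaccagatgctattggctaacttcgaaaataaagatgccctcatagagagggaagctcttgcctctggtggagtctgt

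Csf1r, the receptor tyrosine kinase that microglia need to survive, did not pass the test at either time. Its Ctrl levels at 7 h were -0.98, -0.77 and -0.52, and the OGD levels -0.66, -0.27 and 0.08. OGD was higher within all 3 slides, by 0.32, 0.51 and 0.61, but the groups overlapped and the log2 fold change of 0.48 had a limma adjusted p of 0.576 and a 95% interval from -0.25 to 1.20. At 24 h the value was 0.20 (95% interval -0.53 to 0.92), and the other probe of Csf1r gave 0.59 and 0.53 at the 2 times, also without a call. Of the ligands of this receptor, Csf1 gave 0.41 (limma adjusted p = 0.833) at 7 h and 1.14 (SE 0.64, adjusted p = 0.440) at 24 h. Csf1 at 24 h was 1.60, 3.04 and 3.25 on Ctrl arrays and 3.11, 3.87 and 4.33 on OGD arrays, and without Ctrl replicate 1 the difference was 0.63. Il34, the ligand that neurons supply, gave -0.09 and -0.58 (limma adjusted p = 0.914 and 0.425).

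P2ry12, the ADP receptor of surveying microglia, was well above background on all arrays at 7 h and on 2 of 3 arrays of each group at 24 h. It differed by -0.18 at 7 h (95% interval -1.34 to 0.98) and by 0.23 at 24 h (-0.93 to 1.39). At 24 h the OGD levels ran from -4.25 to -1.88 and the Ctrl levels from -3.75 to -2.82, with replicate 1 lowest in both groups, so the groups overlapped widely. The 7 h interval reaches a fall of 2-fold and the 24 h interval a rise of 2-fold, and P2ry12 did not pass the test at either time. Single arrays decided its value at 24 h, which was 0.91 and passed an unadjusted 0.05 without OGD replicate 1, -0.27 without OGD replicate 3 and -0.08 without Ctrl replicate 1.

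Itgam, the CD11b chain of complement receptor 3, was measured on few arrays. At 7 h 1 Ctrl array (replicate 3, at -3.78) and 1 OGD array (replicate 1, at -2.78) were well above background, and the fitted difference was 0.87 with a 95% interval from -0.93 to 2.67. At 24 h 1 Ctrl array (replicate 1, at -3.65) and 0 OGD arrays were well above background. No fold is given for 24 h, because the Ctrl mean of -4.73 did not exceed the detection bound of the OGD arrays, -4.38. Its partner chain Itgb2 was well above background on 0 of 12 arrays, so although its fitted difference at 7 h was called (-1.06, limma adjusted p = 0.266), no fold is given for it either.

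Aif1, which encodes the actin-binding protein Iba1, was steady on its brightest probe. Its levels were -0.47, -0.47 and 0.13 on Ctrl arrays at 7 h and -0.40, -0.33 and -0.66 on OGD arrays. At 24 h they were -0.20, 0.05 and -0.05 on Ctrl arrays and 0.22, 0.04 and 0.40 on OGD arrays. The groups overlapped at both times, at 24 h by 0.01, and the log2 fold changes were -0.19 (95% interval -0.65 to 0.27) and 0.29 (-0.17 to 0.75). The other Aif1 probe, dimmer on average and well above background on every array, pointed the other way at 7 h. It gave 1.72 (SE 0.84, limma adjusted p = 0.454) at 7 h and 1.33 (adjusted p = 0.489) at 24 h. On that probe the within-slide differences at 7 h were 4.06, 1.68 and -0.57, so the slides differed in direction. The 2 probes leave the direction of Aif1 at 7 h undecided.

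Cd68, a glycoprotein of lysosomes in phagocytes, differed little at 7 h (-0.05, 95% interval -0.92 to 0.82). At 24 h its levels were 2.27, 1.93 and 1.50 on Ctrl arrays and 3.69, 2.07 and 2.82 on OGD arrays. OGD replicates 1 and 3 lay above all Ctrl arrays, and replicate 2 lay within them. The log2 fold change was 0.96 (SE 0.39, limma adjusted p = 0.332), a fold of 1.95, and the within-slide differences were 1.43, 0.14 and 1.33. Without OGD replicate 1 it was 0.55 and no longer passed, and without OGD replicate 2 it was 1.36 and was called. It also no longer passed without Ctrl replicate 2 (0.98), Ctrl replicate 3 (0.76) or OGD replicate 3 (0.98). Cd68 passed an unadjusted 0.05 in 15 of 23 alternatives, and not in the methods' t-test. The response of Cd68 at 24 h exceeded that at 7 h by 1.01, but this difference did not pass its test (limma adjusted p = 1.0).

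Trem2, the lipid-sensing receptor, and Tyrobp, the adaptor DAP12 through which it signals, did not pass the test in the fit of all arrays. Trem2 gave -0.35 at 7 h (95% interval -0.90 to 0.20) and 0.20 at 24 h (-0.35 to 0.75). Without OGD replicate 2 Trem2 at 7 h was -0.61 and passed an unadjusted 0.05, and without OGD replicate 3 it was -0.15. Tyrobp at 7 h was -0.74, -0.64 and -0.72 on Ctrl arrays, a narrow range, and 0.66, 0.14 and -1.19 on OGD arrays. OGD replicates 1 and 2 were above all Ctrl arrays and replicate 3 below all of them, and the log2 fold change was 0.57 (SE 0.41, limma adjusted p = 0.598). Without OGD replicate 3 it was 1.10 and was called. At 24 h Tyrobp was higher after OGD within all 3 slides, by 0.72, 0.51 and 0.25, with a log2 fold change of 0.49 (95% interval -0.41 to 1.40). Of the kinases downstream, Syk was lower after OGD at 7 h by -1.92 on its brightest probe (limma adjusted p = 0.270), with Ctrl levels of -1.73, 0.56 and -1.88 and OGD levels of -3.38, -2.82 and -2.59. Without Ctrl replicate 2, the high value, the Syk difference was -1.13, and the other 2 probes of Syk gave -0.46 and -0.10 (limma adjusted p = 0.550 and 0.919).

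C1qa and C1qb encode chains of C1q, the first component of the classical complement cascade, which microglia make in the brain. C1qb was the member whose groups parted at 24 h, at 0.92, 1.16 and 1.00 on Ctrl arrays and 1.81, 1.75 and 1.57 on OGD arrays. Each OGD array lay above each Ctrl array with little spread on either side, as was true with OGD higher for 10.9% of all probes. Itgam, near background, was the member whose groups parted downwards, as 7.03% did. The log2 fold change was 0.68 (SE 0.33, 95% interval -0.05 to 1.41, adjusted p = 0.389), a fold of 1.61, and the within-slide differences were 0.88, 0.60 and 0.56. The outcome depended on where the spread was taken from, since C1qb did not pass an unadjusted 0.05 in the fit of all 4 groups and did so in limma on the 24 h arrays alone and in the methods' t-test. It also passed when Ctrl replicate 3 or OGD replicate 3 of the 7 h groups was left out of the fit, which leaves the difference at 0.68. At 7 h C1qb was 1.04, 0.92 and 1.84 on Ctrl arrays and 2.17, 1.96 and 0.93 on OGD arrays, where the groups overlapped and the difference was 0.42 (limma adjusted p = 0.632). Without OGD replicate 3 the C1qb difference at 7 h was 0.80 and passed an unadjusted 0.05.

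C1qa varied far more between arrays than C1qb. Its OGD levels at 7 h were -1.27, -1.25 and -4.33, the last not well above background, against -2.46, -1.83 and -2.18 on Ctrl arrays. At 24 h the OGD levels were -1.24, -1.12 and -3.88, against -2.67, -2.40 and -3.07. At both times OGD replicates 1 and 2 were above all Ctrl arrays and replicate 3 below all of them. The log2 fold changes were -0.13 (SE 0.86) at 7 h and 0.63 (SE 0.86, limma adjusted p = 0.768) at 24 h, with 95% intervals from -2.04 to 1.78 and from -1.28 to 2.54. C1qc, the other chain of C1q, was well above background on 8 arrays and gave 0.96 (limma adjusted p = 0.507) at 7 h, from 2 OGD arrays because replicate 3 had no value, and 0.87 (adjusted p = 0.446) at 24 h.

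C1qa and C1qb lie on chromosome 5, with starts 12106 bases apart on the same strand. The bases before both are shown because the genes varied together between arrays (r = 0.66 below). They come from RefSeq on build GRCr8, 5′ to 3′, with GAGGAA or TTCCTC in capitals. The stretch of C1qa is chr5:154419934-154420183 and that of C1qb chr5:154407828-154408077, both on the minus strand.
C1qa: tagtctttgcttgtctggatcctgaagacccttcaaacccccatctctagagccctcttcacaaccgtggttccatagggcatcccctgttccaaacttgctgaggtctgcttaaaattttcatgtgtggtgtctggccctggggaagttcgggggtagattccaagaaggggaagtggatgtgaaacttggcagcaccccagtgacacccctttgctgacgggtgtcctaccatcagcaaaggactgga
C1qb: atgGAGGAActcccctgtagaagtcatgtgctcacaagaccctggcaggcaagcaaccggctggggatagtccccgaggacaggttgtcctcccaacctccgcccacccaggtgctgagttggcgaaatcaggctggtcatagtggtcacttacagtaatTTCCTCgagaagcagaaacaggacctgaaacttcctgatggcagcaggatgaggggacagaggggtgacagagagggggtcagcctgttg
That of C1qb holds the letters on each strand, and that of C1qa holds none.

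At 7 h the microglia genes differed between slides by more than their median OGD difference, and 1 array stood apart. OGD replicate 3 at 7 h had the lowest level of its group in 8 of the 10 genes. Within the 7 h slides the median difference of the 10 genes was 0.73 for replicate 1, 0.61 for replicate 2 and -0.72 for replicate 3 (SD 0.80), with 7, 9 and 3 genes higher after OGD. At 24 h the slides were closer, at 0.46, 0.35 and 0.27 (SD 0.10), with 8, 7 and 6 genes higher. Leaving out OGD replicate 3 at 7 h raised the median difference of the fit there to 0.55, the highest of a range that began at 0.04 when other arrays were left out, and the number of called genes to 2, Cx3cr1 and Tyrobp. The 2 arrays of slides 1 and 2 were scanned 211 min apart and those of slide 3 together. The median spot intensity of the OGD arrays at 7 h was 234.2, 363.8 and 425.7 for replicates 1 to 3, against 660.3, 447.1 and 532.0 on the Ctrl arrays. At 24 h the arrays of slide 4, those of replicate 1, were scanned 177 min apart and those of slides 5 and 6 together. The median spot intensity at 24 h was 130.6, 373.7 and 546.4 on OGD arrays for replicates 1 to 3, against 402.0, 476.5 and 437.7 on Ctrl arrays. OGD replicate 1 at 24 h had the highest level of its group in 6 of the 10 genes. The part of scan and brightness in the differences at 7 h and 24 h was not tested.

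With the group means removed, the deviations of the genes over the 12 arrays gave 45 pairwise correlations between -0.65 and 0.88, with a median of 0.26, and 13 of the pairs were above 0.5. Tyrobp and C1qa were the closest (r = 0.88), followed by Itgam with C1qb (r = 0.80) and Itgam with Tyrobp (r = 0.78), but Itgam was well above background on 3 of 12 arrays, so its pairs rest mostly on background signal. C1qa and C1qb gave r = 0.66, and Tyrobp and C1qb 0.71. Without OGD replicate 3 at 7 h the pair of Tyrobp and C1qa stayed at 0.79, while C1qa with C1qb fell to 0.42 and Cx3cr1 with C1qb from 0.64 to 0.30. P2ry12 gave r = -0.65 to Cd68 and -0.50 to Csf1r but 0.37 to Aif1, 0.30 to Cx3cr1 and 0.10 to C1qb, and Cx3cr1 and Csf1r gave -0.56. These are descriptions over 12 arrays that share normalization and slides.

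**Figure D3:**
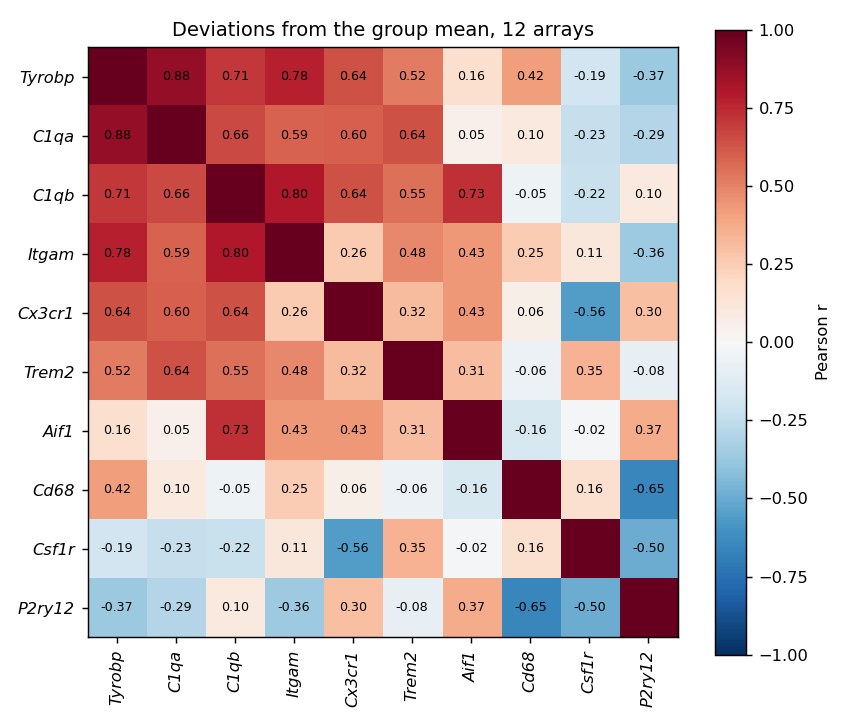
Pearson r between the deviations of each pair of microglia genes from their group means over the 12 arrays (color scale from -1 to 1, values printed in the cells). Tyrobp, C1qa and C1qb have values from 0.66 to 0.88 with each other, Itgam was well above background on 3 arrays, and P2ry12 is below 0 with Cd68, Csf1r, Tyrobp, Itgam, C1qa and Trem2.

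The mean deviation of the 7 genes measured on every array was lowest on OGD replicate 3 at 7 h (-0.41) and highest on OGD replicate 1 at 24 h (0.30). The latter was the dimmest array, with a median log2 intensity of 6.23 where the others lay between 6.92 and 8.20. Among 10895 other genes well above background on all arrays, those closest to this mean were Or4c127 (r = 0.96), Defb36 (0.94), Spmip8 (0.93), Or1e22 (0.92) and Smug1 (0.92), which are 2 olfactory receptors, a defensin, a sperm microtubule protein and a DNA repair glycosylase. None of them is on a microglia list. The nearest of the listed microglia and macrophage genes, Cst7 and Laptm5, ranked 109 (r = 0.80) and 189 (r = 0.77).

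Beyond the 10, 65 genes of 7 lists of microglia and macrophage biology had a probe, 40 of them well above background on all arrays. At 7 h 2 were called higher and 2 lower, against 2.08% and 1.66% of all probes, with a median log2 fold change of 0.12. At 24 h 3 were called higher and 0 lower, against 3.71% and 1.96%, with a median of 0.31. At that time 8 of the 65 passed an unadjusted 0.05, all higher after OGD. Over all 30367 probes, 2280 passed an unadjusted 0.05 as higher at 24 h and 1880 as lower. By adjusted p 0 passed at either time.

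Among 6 lineage transcription factors, Runx1 was higher after OGD at both times and Spi1 at 24 h. Runx1 at 7 h was 0.43, 0.42 and 0.89 on Ctrl arrays and 2.69, 2.34 and 2.53 on OGD arrays, all clear of each other, with a log2 fold change of 1.94 (SE 0.56, limma adjusted p = 0.270). At 24 h Runx1 was 0.09, -0.13 and -0.17 on Ctrl arrays and 3.31, 0.84 and 0.62 on OGD arrays, a log2 fold change of 1.66 (limma adjusted p = 0.290), or 0.80 without OGD replicate 1. Spi1, the PU.1 gene, was well above background on 1 of 3 Ctrl and 3 of 3 OGD arrays at 24 h. Its levels there were -4.64, -4.92 and -4.00 on Ctrl arrays and -1.14, -3.15 and -2.67 on OGD arrays, with a log2 fold change of 2.20 (SE 0.94, limma adjusted p = 0.345). Spi1 at 24 h passed an unadjusted 0.05 in 15 of 23 alternatives. It did not without Ctrl replicate 1 or 2 or OGD replicate 1 or 3 (1.61 to 2.38, lowest without OGD replicate 1), nor with the slide as a fixed block, quantile normalization (1.96), spike-in scaling (1.18) or normexp (0.72). At 7 h Spi1 gave 1.70 (limma adjusted p = 0.498), from 0.71 without OGD replicate 1 to 2.58 without Ctrl replicate 3, and it passed an unadjusted 0.05 in 3 of 23 alternatives. Irf8 gave -0.40 and -0.05 without a call.

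Of 17 pan-leukocyte genes, Tlr2, a receptor of microbial and damage signals, was called at 7 h. It stood at -0.49, -0.38 and -0.58 on Ctrl arrays and at 0.86, 1.99 and 1.14 on OGD arrays, without overlap, with a log2 fold change of 1.81 (SE 0.47, limma adjusted p = 0.260). At 24 h it gave -0.21 (limma adjusted p = 0.882). Of 14 genes tied to lipid handling and phagocytosis, 13 lay above 0 at 7 h and 12 at 24 h, where 45.2% and 52.0% of all probes did. At the 2 times 1 and 4 of them passed an unadjusted 0.05 as higher, as did 1455 and 2280 of all 30367 probes. The 14 include Clec7a, which was well above background on 0 arrays. Lgals3, the lectin galectin-3, was called at 24 h, where Ctrl levels were 2.65, 5.40 and 5.88 and OGD levels 7.35, 6.42 and 6.33. Its log2 fold change was 2.06 (SE 0.68, limma adjusted p = 0.290), or 1.06 without Ctrl replicate 1, the low array, and 1.06 (adjusted p = 0.542) at 7 h. Cd63, Cd9 and Ctsz, also of that list, passed an unadjusted 0.05 at 24 h with differences of 0.97, 0.95 and 0.76, below a fold of 2. Of 8 genes of resting microglia, 0 were called at either time, and those that passed an unadjusted 0.05 were 0 at 7 h and 1, Olfml3, at 24 h (0.88, limma adjusted p = 0.326). Cd63, Cd9, Ctsz and Olfml3 were named here after their values were seen. Several genes of these lists, such as Runx1, Tlr2, Lgals3, Cd63 and Cd9, are also expressed by astrocytes, neurons or other cells.

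**Figure D4:**
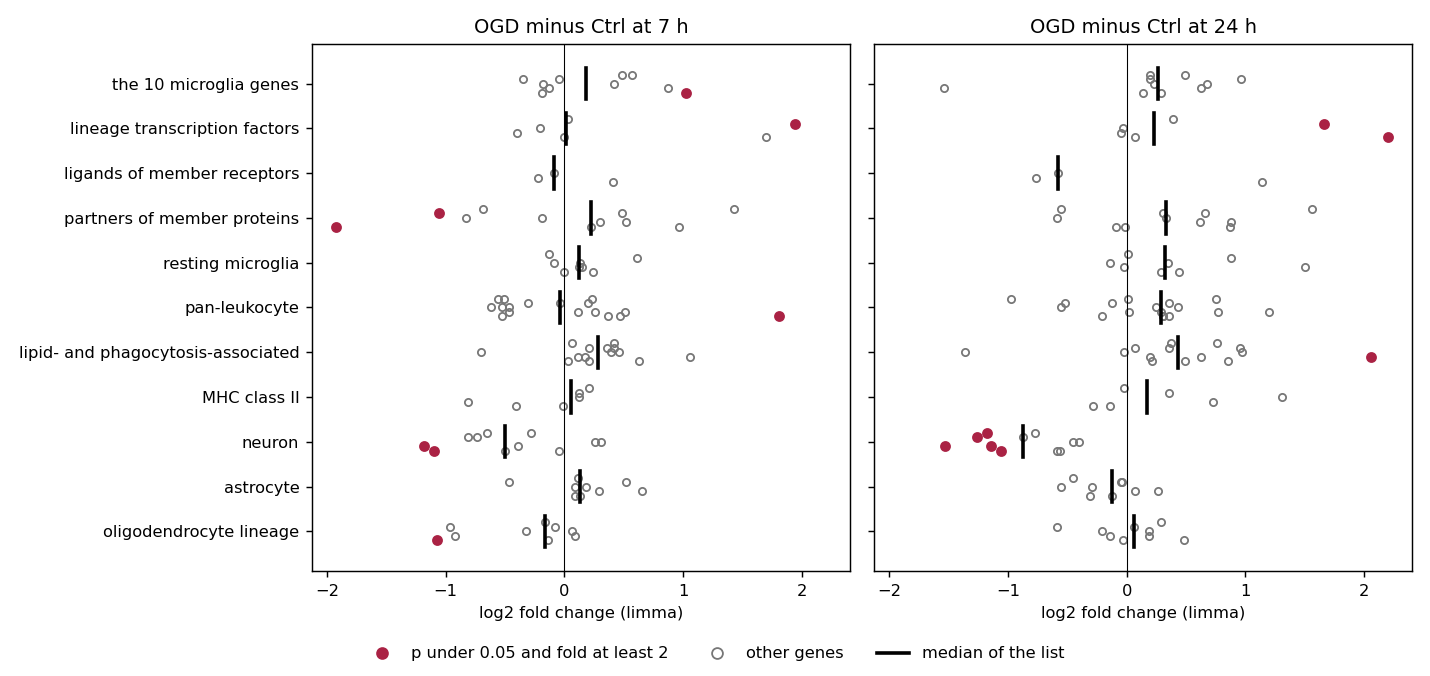
Log2 fold change of OGD over Ctrl (horizontal axes) at 7 h and 24 h for the 10 microglia genes, 7 other lists of microglia and macrophage genes and 3 lists of other brain cells, with 1 circle for each gene, filled where called, and a bar at the median of each list. The neuron list lies to the left at 24 h, with a median of -0.87, and the microglia lists spread on both sides of 0.

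Most of the neuron markers fell at 24 h after OGD in the same RNA. Of 11 neuron genes, 7 were lower at 24 h by an unadjusted 0.05, as were 6.19% of all probes, 5 of them called (1.96% of all probes), with a median log2 fold change of -0.87, and 2 were called lower at 7 h (1.66% of all probes). The mean level of that list at 24 h ran from 4.40 to 4.85 on Ctrl arrays. On OGD arrays it was 3.05, 3.99 and 4.16, with the lowest value on replicate 1, the dimmest array. The part of that array in the list median was not tested. The first markers of the neuron list gave smaller values at 24 h, -0.59 for Rbfox3 (limma adjusted p = 0.369) and -0.56 for Tubb3 (adjusted p = 0.504). Of 9 astrocyte genes, 0 were called at either time. At 7 h 8 of them lay above 0 and 2 passed an unadjusted 0.05, both as higher, with a list median of 0.13. At 24 h 2 lay above 0 and 0 passed, with a list median of -0.12. The first 2 markers, Gfap and Aqp4, gave -0.45 and -0.55 at 24 h, the latter the lowest value of the list. Aqp4 there was 7.40, 7.64 and 7.59 on Ctrl arrays and 5.62, 7.34 and 8.01 on OGD arrays. Of 9 genes of the oligodendrocyte lineage, 1 was called lower at 7 h. At 24 h Olig1 and Olig2 gave 0.29 and 0.48 (limma adjusted p = 0.687 and 0.344), beside a list median of 0.06. The part of these shifts in the microglia values was not tested.

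Most genes that would mark macrophages or lymphocytes from outside the tissue were near background. Of 8 genes of blood-borne and border myeloid cells, 1, Lyz2, was well above background on all 12 arrays. The mean of Lyz2 was lower after OGD, at 4.26 for Ctrl and 3.16 for OGD at 7 h. At 24 h its means were 3.95 and 2.69, and the groups overlapped. In this list 1 gene was called lower at 7 h (1.66% of all probes), and this was Ly6c, not Lyz2. Ly6c was well above background on 1 of 3 Ctrl arrays and 0 OGD arrays there, so no fold is given for it. Mrc1 and Lyve1, 2 of the 8, were called higher at 24 h (3.71% of all probes). The OGD mean of Lyve1 there, with 2 of 3 OGD arrays well above background, was 1.59-fold above the detection bound of the Ctrl arrays. No fold is given for Mrc1. Mrc1 was well above background on 1 of 12 arrays and Cd163 on 0. Cd3e was so on 2 arrays, OGD replicates 1 and 3 at 24 h (limma adjusted p = 0.334). Its OGD mean there, which includes replicate 2 at -7.18, was 1.42-fold above the detection bound of the Ctrl arrays. Cd3g was well above background on 2 arrays, 1 Ctrl at 7 h and 1 OGD at 24 h. Of the vascular genes, Cldn5 was lower after OGD at 7 h (fitted -1.48, limma adjusted p = 0.226). None of the OGD arrays was well above background for Cldn5. Its Ctrl mean, with 2 of 3 arrays well above background, was 1.17-fold above the detection bound of the OGD arrays. Pecam1 at 7 h gave -0.91 (limma adjusted p = 0.333). At 24 h the 9 genes of vascular cells and fibroblasts had 1 call, Pdgfrb, a receptor of pericytes, which was -0.41, 0.41 and 0.96 on Ctrl arrays and 1.62, 1.54 and 1.80 on OGD arrays (log2 fold change 1.34, SE 0.38, limma adjusted p = 0.269). The collagen genes Col1a1, Col1a2 and Col3a1 gave 1.50, 1.49 and 1.43 without passing. The median of the list at 24 h was 0.35, or 1.34 over the 7 genes well above background on all arrays, and its mean level ran from 0.33 to 1.22 on Ctrl arrays and from 1.13 to 1.67 on OGD arrays. The part of these genes in the microglia values was not tested.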

How the data were processed

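The deposited intensities, 1 scanner file for each of the 12 arrays, were made by the authors with Agilent Feature Extraction 10.5.1.1, which subtracted the background and corrected trends but did not normalize between arrays. The authors also deposited median-centred log2 values of the same spots, which equal these within 0.01 after 1 constant for each array. Here outlier spots were left out, intensities were put on the log2 scale, probes with several spots got their mean, and each array was centred on its median. Probes were named by their RefSeq accession (18004 of 30367), and a gene is its brightest probe. The files hold no mean signal, so normexp (offset 50) used the median signal. Groups were compared in limma 3.58.1 (R 4.3.3), 1 fit of 4 groups, two-sided, adjusted by Benjamini-Hochberg over all probes. A call is an unadjusted p under 0.05 with a fold of at least 2. The procedure was tested on simulated data. For a group with no array well above background, a fold is given only against the lowest signal that the software called well above background. None is given where the brighter mean does not exceed it, and that mean includes arrays not well above background. Named by rule were the 10 genes, listed microglia and macrophage genes with a call, Csf1, Il34, Cx3cl1, Itgb2 and C1qc. The rule also covered the first 2 markers of each other cell type and the 5 genes most alike in deviations. Other named genes, among them Ly6c, Lyz2, Lyve1, Pdgfrb, Col1a1, Col1a2 and Col3a1, lie outside this rule. Their choice is not independent of their values. The members and lists were chosen with earlier results of these data known. The two-sided p of an exact permutation test of 3 arrays against 3 cannot go below 0.1, so the number of arrays limits what such a test can show. The methods name 3 independent cultures a group.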

Additional observations from a re-analysis of the deposited data

Results flagged for a closer look

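The OGD response of Cx3cr1 at 24 h minus that at 7 h was -0.88 on the log2 scale (SE 0.39, limma adjusted p = 1.0). It passed an unadjusted 0.05 with all arrays, but in 7 of 21 alternatives and not with the slide as a fixed block. OGD arrays were higher within 3 of 3 slides at 7 h and within 2 of 3 at 24 h. The Ctrl arrays themselves were higher at 24 h than at 7 h by 1.25, and the OGD arrays of the 2 times, with means of 3.55 and 3.92, lay closer together.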

How the results depend on the processing

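The choice of scaling and single arrays moved the calls of the microglia genes. Scaling to the spike-in probe, which rests on 32 spots of 1 probe and moved the median of all probes by up to -4.60 (Ctrl 24 h against Ctrl 7 h), called 0 members at 7 h, 1 at 24 h and 10 between the Ctrl groups, gave a median of -0.76 at 24 h, and turned Cx3cr1 between the Ctrl groups to -3.30. It also turned at 7 h Csf1r (-0.30), Tyrobp (-0.21), C1qb (-0.36) and Csf1 (-0.37), and at 24 h Aif1 (-0.74), Cd68 (-0.06), Cx3cr1 (-0.88), Csf1r (-0.83), P2ry12 (-0.79), Trem2 (-0.83), Tyrobp (-0.53), C1qa (-0.40) and C1qb (-0.34). These turns follow from that shift of all probes. Normexp called 0 members at 7 h and turned Aif1 (0.11), P2ry12 (0.58), Trem2 (0.42), C1qa (0.78) and Csf1 (-0.11) at 7 h and Cx3cr1 (-0.28), Tlr2 (0.16) and Syk (0.28) at 24 h. The 75th percentile called 1 member at 24 h with a median of 0.37, and turned Cd68 (0.07) and Il34 (0.02) at 7 h and Syk (0.02) at 24 h. Quantile normalization called 1 member at 24 h and 1 for the difference between the times, where 0 were called before, and turned Cd68 (0.07) and Il34 (0.01) at 7 h and P2ry12 (-0.00) at 24 h. The mean over a gene's probes gave a median of 0.43 at 24 h, 0.77 for Aif1 at 7 h and 0.11 for Syk at 24 h. Limma on each time alone called 1 member at 24 h. The cause of these other changes was not tested.

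Leaving out each array in turn gave 0 to 2 called members at 7 h, 0 to 1 at 24 h and 0 to 2 for the difference between the times, and a median from 0.04 to 0.55 at 7 h and from 0.23 to 0.38 at 24 h. It turned small values, with ranges of -0.29 to 0.01 for Aif1, -0.27 to 0.18 for Cd68, -0.64 to 0.90 for C1qa, -0.33 to 0.86 for Csf1 and -0.23 to 0.11 for Il34 at 7 h, and of -0.11 to 0.38 for Csf1r, -0.27 to 0.91 for P2ry12, -0.62 to 0.42 for Tlr2 and -0.33 to 0.13 for Syk at 24 h.

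Same-numbered Ctrl and OGD arrays, which share a slide, deviated together with r between -0.05 and 0.17, so the numbers were not taken as pairs. With the slide as a fixed replicate block, 1 member was called at 7 h, 0 at 24 h and 1, Cd68 (1.01), for the difference between the times, and with a random block 1, 0 and 0. With the fixed block the Cx3cr1 difference between the times (-0.88) and Spi1 at 24 h (2.20) no longer passed an unadjusted 0.05, and Csf1 at 24 h (1.14) did.

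Of 867 values of single genes under the alternatives, 761 kept their direction and side of the threshold, 39 lost and 23 gained an unadjusted p under 0.05, and 44 turned. Itgam, C1qa and P2ry12 were limited by signals near background.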
